A study of Mus musculus with 37 samples.

Results

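The 10 genes described here carry or restrain the signal of cytokine receptors in uterine natural killer (uNK) cells. They are Socs1, Socs2, Socs3 and Cish of the SOCS family, the kinases Jak1 and Jak3, and the transcription factors Stat3, Stat4, Stat5a and Stat5b. The rule that picks them is a list of names with no cut on measured values, although earlier results of these data were known when it was drawn up. They are 10 of the 53700 genes counted in each library. All 10 passed the filter on low counts in all 7 comparisons, so none is left out below.

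Cytokine receptors of this kind have no enzyme of their own. Binding of the cytokine activates JAK kinases held on the receptor's tail, the JAKs phosphorylate STAT proteins, and paired STATs enter the nucleus and bind DNA. SOCS proteins are switched on by STATs and act back on the receptor or the JAK, and NK cells depend on this pathway for IL-2, IL-12, IL-15, IL-21 and interferons.

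The libraries were made from uNK cells of the pregnant mouse uterus at gestation days 9.5 to 10.5, in order to compare cells that carry a receptor for self MHC class I (educated) with cells that carry neither of 2 such receptors (uneducated). Live single cells that were CD45+ and NKp46+, and negative for markers of other cells that included CD3, CD4, CD8 and high CD11b, were sorted by NKG2A and by Ly49C/I, and cells with both receptors were not collected. In WT C57BL6 mice there were 9 uneducated (Ly49C/I- NKG2A-) libraries, 9 NKG2A+ (Ly49C/I-) libraries and 6 Ly49C/I+ (NKG2A-) libraries. In mice labelled NKG2A KO C57BL6 there were 8 uneducated and 5 Ly49C/I+ libraries. The labels name no treatment, and the sources used here do not describe how the NKG2A KO mice were made. If these mice make no NKG2A, cells that would be NKG2A+ in WT mice fall into their NKG2A- gates. Both NKG2A KO groups, also the one called uneducated, may then hold such cells. The labels do not say that libraries of a group came from separate mice, so p-values measure the spread between libraries, which may be technical.

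The sort was checked on RNA. Between 13287163 and 18875033 reads fell on genes in each library. Klrc1, which encodes NKG2A, was at 494 to 760 CPM (the count of a gene relative to all reads on genes, scaled to a common total) in NKG2A+ libraries and at 13.8 CPM or less in all others. Klra9, a Ly49 gene of the Ly49C/I group, was at 464 to 1136 CPM in Ly49C/I+ libraries and at 123 CPM or less in the rest. The gate takes NKG2A+ cells away from both NKG2A KO groups, so Klrc1 does not check the genotype there. NK cell markers (10 genes) summed to between 9400 and 13433 CPM. Of the defining markers of other cells, Pax5 was at 0 in 37 of 37 libraries, Cd4 in 35 and Cd8a in 34, whereas Cd3g reached 181 CPM. Libraries WT uneducated 5, WT NKG2A+ 9, WT Ly49C/I+ 5 and NKG2A KO Ly49C/I+ 5 had a count on the fewest genes, between 13982 and 14197, against a median of 15879, and results are also given without them.

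The promoters of Cish and Socs3 are shown because, among the windows searched, these held the palindrome TTCNNNGAA, the core letters of the DNA element that STAT dimers bind. RefSeq gives a promoter, 250 bases before to 50 bases after the start, for 9 of the 10 genes, with 12 starts in all (GRCm38.p6). Socs2 has no entry. Capitals mark the motif, which reads the same on both strands, and the sequence is printed from 250 bases before to 30 bases after the start.
Cish, chr9:107296409-107296688, plus strand: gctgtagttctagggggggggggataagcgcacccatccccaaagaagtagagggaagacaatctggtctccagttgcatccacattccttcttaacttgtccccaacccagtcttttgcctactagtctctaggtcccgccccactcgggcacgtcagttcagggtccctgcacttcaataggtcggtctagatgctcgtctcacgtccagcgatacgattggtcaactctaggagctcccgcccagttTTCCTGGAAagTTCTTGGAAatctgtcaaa
Socs3, chr11:117969337-117969616, minus strand: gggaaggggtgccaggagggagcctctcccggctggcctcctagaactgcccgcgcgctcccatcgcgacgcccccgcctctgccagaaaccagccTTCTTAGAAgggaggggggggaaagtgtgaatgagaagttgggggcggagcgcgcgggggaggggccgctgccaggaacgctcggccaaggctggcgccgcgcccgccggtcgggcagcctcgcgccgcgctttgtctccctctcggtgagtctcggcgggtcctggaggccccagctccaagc
Cish held 2 copies, TTCCTGGAA beginning at base 1 and TTCTTGGAA beginning at base 12 after the start, with 2 bases between them and no overlap. Socs3 held 1 copy, TTCTTAGAA, beginning 154 bases before the start. Both printed windows lie inside the annotated spans of the genes, which are given below. A stretch just after the start was found in an annotated transcript for Cish but not for Socs3. Among 32851 RefSeq promoters of the same length, 2726 (8.30%) held the motif at least once and 150 (0.457%) held 2 or more copies. The letters were not found in the other 10 windows, among them both starts of Stat4. A match describes the sequence and does not show binding in these cells.

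The 10 genes spanned a wide range of levels. Per kb of annotated exon, over all 37 libraries, the mean was highest for Jak1 at 149 CPM per kb, followed by Stat3 at 73.9, Jak3 at 49.0, Socs3 at 44.1 and Stat4 at 31.5. Socs1 came to 19.0 CPM per kb, Stat5b to 17.7, Cish to 15.4 and Stat5a to 8.43. Socs2 was lowest, at 2.22 CPM per kb. The length is that of all annotated exons of a gene together (6419 bases for Cish, 2908 for Socs1), so the order depends on the annotation. Without division by length the mean of Cish was above that of Socs1 in every group, for instance 79.9 against 43.9 CPM in WT uneducated libraries. The smallest count of any member in any library was 127 reads, for Socs2. Spread between libraries of a group (the mean coefficient of variation over the 5 groups) was 8.06% for Jak1, 12.3% for Stat4 and 30.1% for Socs2, against a median of 22.2% over 9287 genes that reached 5 CPM in a share of 0.5 or more of all libraries.

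Between populations, genes of all 3 families differed. CPM values were scaled by TMM factors over all libraries, and tests were those of edgeR's quasi-likelihood method with Benjamini-Hochberg adjustment over all genes tested and a threshold of 0.05. In NKG2A+ cells 3 of the 10 genes were higher than in uneducated WT cells, namely Stat4, Jak1 and Socs3, and 0 were lower. Of the 9339 genes tested in that comparison 7.47% were higher and 7.56% lower. In WT Ly49C/I+ cells Socs3, Stat4 and Cish were higher than in uneducated cells and Socs2 was lower, against a background of 4.25% higher and 5.05% lower among 9292 genes. In NKG2A KO mice Stat4, Jak1 and Cish were higher in Ly49C/I+ than in uneducated cells and 0 of the 10 were lower, where 7.34% of 9299 genes were higher and 8.99% lower. Directly compared in WT mice, NKG2A+ cells had more Socs2 and less Stat3 than Ly49C/I+ cells, against 1.31% higher and 1.42% lower among 9308 genes. The median log2 fold change of the 10 genes was 0.24 in NKG2A+ cells, 0.30 in WT Ly49C/I+ cells and 0.20 in NKG2A KO Ly49C/I+ cells, each against uneducated cells, while the median over all genes tested was 0.012, -0.00013 and 0.023. The 3 WT comparisons share libraries with each other, so their values are set side by side and are not independent. In bulk RNA, fewer cells of a type and less RNA per cell cannot be told apart.

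**Figure D1:**
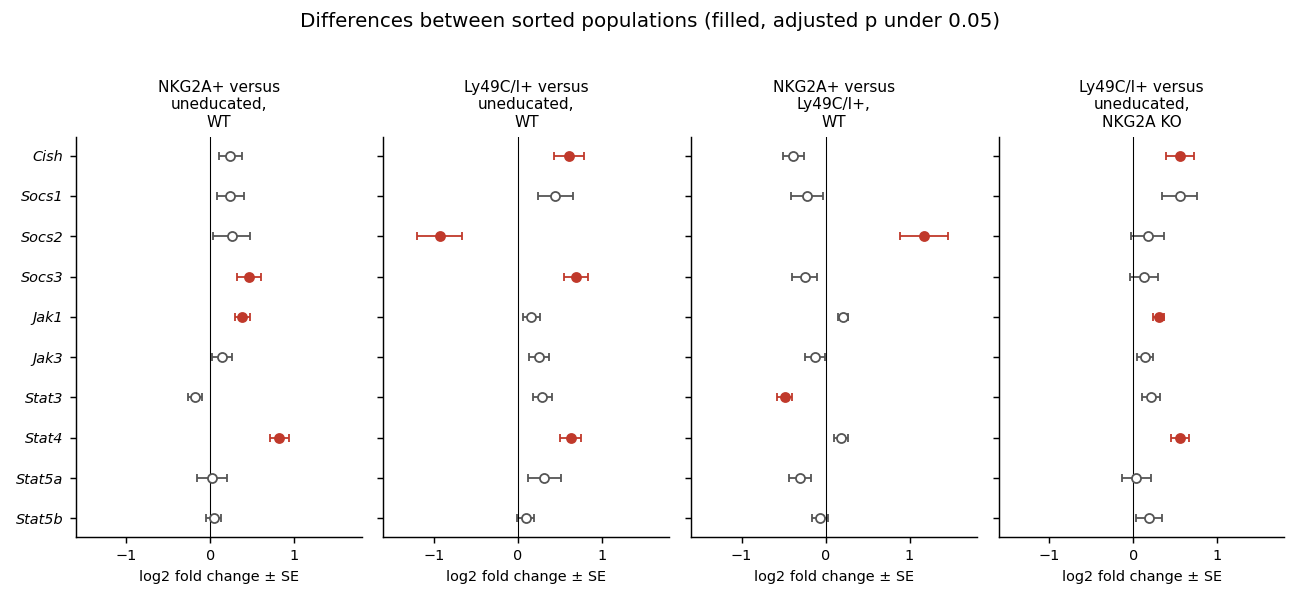
Log2 fold change with its standard error (horizontal axis) for each of the 10 genes in 4 comparisons of sorted populations. Filled points passed the adjusted p threshold of 0.05. Stat4 passed in all 3 comparisons with uneducated cells, and Socs2 lies on opposite sides of 0 in the WT comparisons of Ly49C/I+ with uneducated and of NKG2A+ with Ly49C/I+ cells.

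Sums of some lists of markers of other cells moved with these comparisons. A list of 10 stromal, endothelial and epithelial genes summed to 287 to 439 CPM in WT uneducated libraries, 156 to 249 CPM in NKG2A+ libraries and 170 to 249 CPM in WT Ly49C/I+ libraries. The same list summed in NKG2A KO mice to 216 to 415 CPM in uneducated and 140 to 231 CPM in Ly49C/I+ libraries. Pecam1 and Epcam, the 2 of these genes that were tested, were lower in both educated WT populations, and Epcam was lower in NKG2A KO Ly49C/I+ cells. Over all libraries Pecam1 had a median of 186 CPM, Epcam of 34.4 CPM and every other gene of this list of 1.11 CPM or less. Col1a1, Col1a2, Dcn, Pdgfra, Kdr and Cdh5 were at 0 in 30, 26, 27, 33, 32 and 31 libraries. The 10 myeloid genes summed to at most 135 CPM in WT uneducated libraries and reached 383 CPM in a NKG2A+ and 488 CPM in a Ly49C/I+ library. Of 10 NK cell markers 6 were higher and 1 lower in NKG2A+ than in uneducated cells, with the same counts for Ly49C/I+ cells of NKG2A KO mice, and 2 were higher and 1 lower in WT Ly49C/I+ cells. The 9 T cell genes summed to 87.3 to 187 CPM in WT uneducated, 100 to 232 CPM in NKG2A+ and 105 to 218 CPM in WT Ly49C/I+ libraries, and to 118 to 239 and 130 to 200 CPM in uneducated and Ly49C/I+ libraries of NKG2A KO mice. Cd3d and Cd3e, 2 of the 4 tested, were higher in NKG2A+ than in uneducated cells and 0 were lower, and 0 of 3 passed in either comparison of Ly49C/I+ with uneducated cells. Itgam, a myeloid gene, was higher in NKG2A+ cells and in NKG2A KO Ly49C/I+ cells. The part of these markers in the results below was not tested.

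Cish, an inhibitor of IL-2 and IL-15 signalling that STAT5 switches on, ranged from 41.8 to 198 CPM over the 37 libraries (ENSMUSG00000032578, chromosome 9, 107296026 to 107302784, plus strand, GRCm38). In WT mice it was at 41.8, 80.9 and 111 CPM (lowest, median, highest) in uneducated, 79.6, 97.7 and 105 in NKG2A+ and 86.1, 128 and 164 in Ly49C/I+ libraries. Ly49C/I+ cells had 4 of 6 libraries above all uneducated ones, and the remaining 2 overlapped with them. The log2 fold change was 0.61 (SE 0.181, edgeR adjusted p = 0.0415). In NKG2A KO mice Cish was at 65.4, 90.7 and 125 CPM in uneducated libraries and at 198, 118, 96.0, 124 and 119 CPM in Ly49C/I+ libraries 4 to 8, the order used for this group throughout. The log2 fold change of 0.56 (SE 0.165, adjusted p = 0.0298) rested in part on the library at 198 CPM, without which it was 0.36 (adjusted p = 0.124). It also missed the threshold without uneducated library 2 or 3 or Ly49C/I+ library 7 (adjusted p up to 0.0566). Each call was also repeated under alternatives (other tests, scalings, filters and library sets). Some library sets coincide in a comparison, so the same fit can count more than once in these tallies. In WT mice the call was held in 5 of 15 fits that left out 1 library, with adjusted p between 0.0207 and 0.114. It was lost without WT uneducated 1, 2, 3, 4, 7 or 8 and without WT Ly49C/I+ 4, 5, 7 or 8, and also when GC content and length were corrected (adjusted p = 0.0919). The difference between NKG2A+ and uneducated cells was 0.24 (SE 0.140, adjusted p = 0.284).

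Socs1, which binds JAKs and blocks them, is the SOCS gene best known for restraining interferon signals (ENSMUSG00000038037, chromosome 16, 10782240 to 10785536, minus strand). It passed in no comparison. In WT mice its lowest, median and highest values were 26.1, 42.8 and 62.9 CPM in uneducated, 28.2, 51.1 and 63.6 in NKG2A+ and 37.8, 54.6 and 92.1 in Ly49C/I+ libraries. NKG2A KO mice gave 33.2, 58.4 and 86.3 CPM in uneducated libraries, and the 5 Ly49C/I+ libraries held 97.5, 68.7, 78.9, 90.6 and 62.7 CPM. In that last pair 2 of the 5 Ly49C/I+ libraries were above all uneducated ones. Its log2 difference of 0.555 (SE 0.206, adjusted p = 0.0736) missed the threshold in edgeR's quasi-likelihood test, and it passed in 4 of 24 alternatives, among them DESeq2 (adjusted p = 0.0450) and the fit without uneducated library 4 (0.0177). Over the 24 its log2 difference lay between 0.28 and 0.685 and the adjusted p reached 0.213.

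Socs2, known for its action on growth hormone and prolactin receptors, was the member that went down in WT Ly49C/I+ cells (ENSMUSG00000020027, chromosome 10, 95385362 to 95417180, minus strand). It was at 11.4, 21.1 and 35.2 CPM in WT uneducated, 13.3, 22.6 and 48.8 CPM in NKG2A+ and 7.46, 10.1 and 19.7 CPM in Ly49C/I+ libraries. All groups overlapped, though 3 of the 6 Ly49C/I+ libraries lay below every uneducated library. The log2 fold change was -0.93 against uneducated cells (SE 0.269, adjusted p = 0.0365), a level 0.524 times as high. NKG2A+ cells had 2.26 times as much Socs2 as Ly49C/I+ cells (log2 1.17, SE 0.286, adjusted p = 0.0335), with 7 of 9 NKG2A+ libraries above all Ly49C/I+ ones. The first call was kept in 11 of 27 alternatives and the second in 12 of 27, with no change of direction. Leaving out 1 library ended the first call for 10 of 15 libraries (WT uneducated 2, 3, 4, 7 and 8 and all WT Ly49C/I+ libraries but number 4) and the second for 9 of 15 (NKG2A+ 3, 4, 5 and 8 and the same 5 Ly49C/I+ libraries). Without the 4 libraries with the fewest genes the values were -0.73 (adjusted p = 0.0729) and 1.13 (adjusted p = 0.0560).

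No drop of Socs2 was measured in NKG2A KO mice. Uneducated libraries held 15.9, 20.0 and 29.7 CPM (lowest, median, highest) and the 5 Ly49C/I+ libraries 25.8, 23.1, 16.8, 24.6 and 28.9 CPM, so that all 5 lay within the uneducated range. The log2 difference was 0.17 (SE 0.192, adjusted p = 0.591). Of the 5 NKG2A KO Ly49C/I+ libraries 4 lay above every WT Ly49C/I+ library, by a log2 difference of 1.06 (SE 0.293, unadjusted p = 0.00271, adjusted p = 0.229). The difference between genotypes in the Ly49C/I+ effect was 1.09 (SE 0.326, unadjusted p = 0.00217), and with edgeR's adjusted p = 0.998 it was not shown.

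Socs3, which binds the receptor chain that IL-6 and related cytokines use and blocks the JAKs there, was higher in both educated WT populations (ENSMUSG00000053113, chromosome 11, 117966079 to 117970047, minus strand). Lowest, median and highest values were 68.0, 102 and 138 CPM in uneducated, 91.7, 148 and 185 CPM in NKG2A+ and 127, 167 and 222 CPM in Ly49C/I+ libraries. Of the NKG2A+ libraries 6 of 9, and of the Ly49C/I+ libraries 5 of 6, were above the highest uneducated library. Against uneducated cells Ly49C/I+ cells had 1.62 times the level (log2 0.70, SE 0.142, adjusted p = 0.00654), which passed in 27 of 27 alternatives. NKG2A+ cells had 1.37 times the level (log2 0.46, SE 0.139, adjusted p = 0.0282), which passed in 23 of 30. The latter was lost without WT uneducated 1, 3 or 4 or without NKG2A+ 5, 6 or 9 (adjusted p up to 0.0610). NKG2A+ and Ly49C/I+ cells differed by -0.25 (SE 0.145, adjusted p = 0.390). Among NKG2A KO mice, uneducated libraries spanned 79.5 to 174 CPM around a median of 103, and the Ly49C/I+ libraries held 142, 129, 101, 99.9 and 146 CPM. There the groups overlapped fully, with a log2 difference of 0.13 (SE 0.168, adjusted p = 0.643). The Ly49C/I+ effect was 0.58 lower in NKG2A KO than in WT mice on the log2 scale (-0.578, SE 0.233, unadjusted p = 0.0188, edgeR adjusted p = 0.998).

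**Figure D2:**
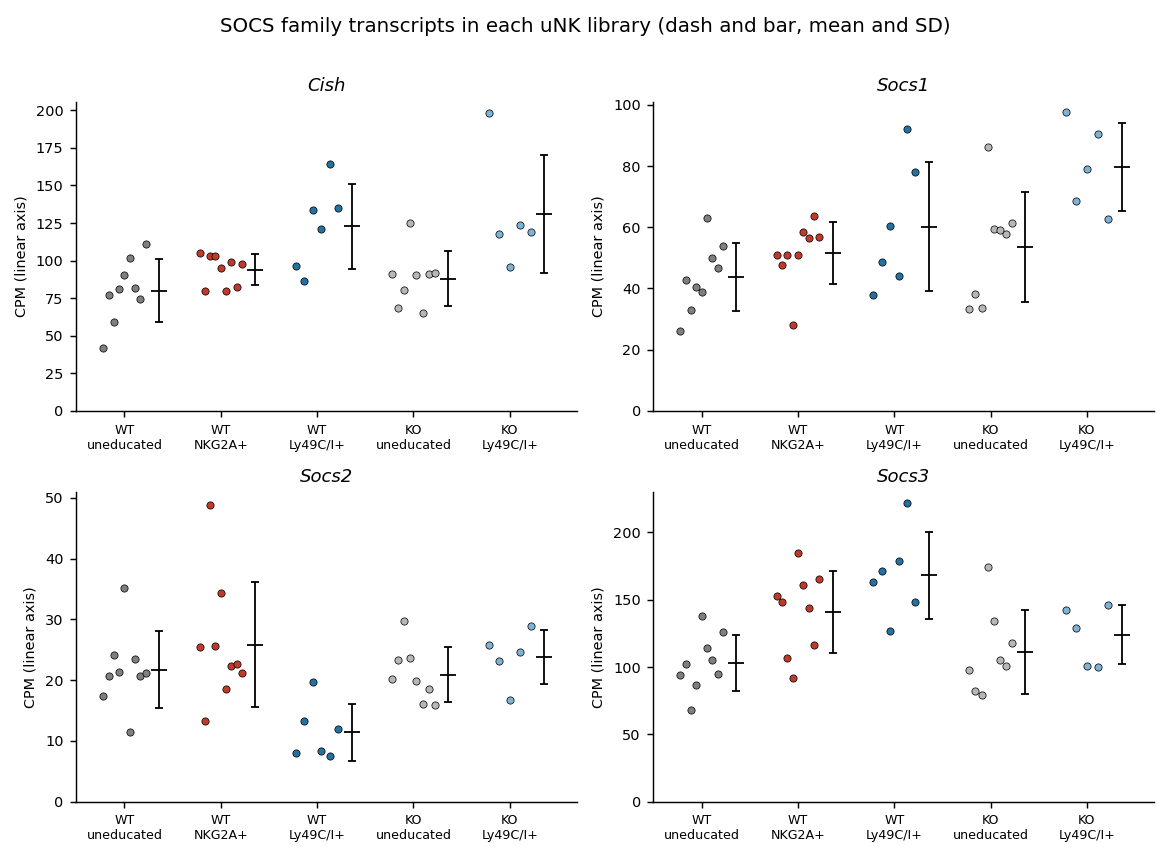
CPM (vertical axis, from 0) of the 4 SOCS genes in each of 37 libraries by group, where KO stands for NKG2A KO, each point is a library, and the dash and bar give the mean and SD. WT Ly49C/I+ libraries are low for Socs2 (7.46 to 19.7 CPM) and high for Socs3 (127 to 222 CPM), and the NKG2A KO Ly49C/I+ library at 198 CPM of Cish stands away from the other 4.

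Jak1, the kinase that sits on most of these receptors, was the most abundant of the 10 genes per kb and the steadiest (ENSMUSG00000028530, chromosome 4, 101152367 to 101265282, minus strand). It was at 720, 962 and 1282 CPM in WT uneducated, 1013, 1243 and 1331 CPM in NKG2A+ and 1003, 1087 and 1124 CPM in WT Ly49C/I+ libraries. The groups overlapped, and 3 of 9 NKG2A+ libraries exceeded the uneducated library at 1282 CPM, above the next uneducated one at 1082 CPM. The rise in NKG2A+ cells was 1.30-fold (log2 0.38, SE 0.0909, adjusted p = 0.00643). It passed in 30 of 30 alternatives. In WT Ly49C/I+ cells the log2 difference from uneducated cells was 0.16 (SE 0.103, adjusted p = 0.367), and all 6 libraries lay within the uneducated range. NKG2A+ and Ly49C/I+ cells differed by 0.21 (SE 0.0600, adjusted p = 0.0678), which did not pass, although 8 of 9 NKG2A+ libraries were above all 6 Ly49C/I+ libraries. It passed in 3 of 27 alternatives, among them DESeq2 (adjusted p = 0.0199) and the fit without NKG2A+ library 3 (0.0189), and its highest adjusted p was 0.403.

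Jak1 separated the 2 populations of NKG2A KO mice without overlap. Uneducated libraries held 872, 976 and 1046 CPM (lowest, median, highest) and Ly49C/I+ libraries 1208, 1186, 1270, 1167 and 1200 CPM. The rise was 1.23-fold (log2 0.30, SE 0.0615, adjusted p = 0.00368) and passed in 24 of 24 alternatives. Among all genes tested in that comparison 2.32% were higher without overlap, and Jak1 and Stat4 were the 2 such members of the 10. Jak1 was also higher without overlap in NKG2A KO than in WT Ly49C/I+ libraries (lowest 1167 against highest 1124 CPM), as were 0.867% of the 9344 genes tested there. That log2 difference was 0.17 (SE 0.0592, unadjusted p = 0.0118, adjusted p = 0.354) and did not pass.

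Jak3, the kinase bound to the common gamma chain of the IL-2, IL-15 and IL-21 receptors, passed in no comparison (ENSMUSG00000031805, chromosome 8, 71676296 to 71690575, plus strand). The lowest, median and highest values in WT mice were 163, 240 and 283 CPM in uneducated, 194, 267 and 357 CPM in NKG2A+ and 239, 284 and 340 CPM in Ly49C/I+ libraries. NKG2A KO mice gave 228, 261 and 321 CPM in uneducated libraries, against 342, 275, 297, 288 and 276 CPM in Ly49C/I+ libraries. Log2 differences from uneducated cells were 0.14 (SE 0.120) in NKG2A+, 0.25 (SE 0.116) in WT Ly49C/I+ and 0.14 (SE 0.0956) in NKG2A KO Ly49C/I+ cells, with edgeR adjusted p of 0.483, 0.187 and 0.345. Per kb, Jak3 stood at a median of 0.360 of the Jak1 level in WT uneducated and 0.293 in NKG2A+ libraries, with overlap between the groups (0.227 to 0.384 and 0.212 to 0.362).

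Stat4, which carries the IL-12 signal and with it the induction of interferon gamma in NK cells, had the lowest adjusted p of the 10 genes (ENSMUSG00000062939, chromosome 1, 51987148 to 52107189, plus strand). In WT mice it was at 63.9, 92.8 and 110 CPM in uneducated, 139, 151 and 184 CPM in NKG2A+ and 123, 137 and 146 CPM in Ly49C/I+ libraries (lowest, median, highest). In NKG2A KO mice it was at 79.0, 103 and 120 CPM in uneducated libraries, and the Ly49C/I+ libraries held 144, 175, 134, 149 and 140 CPM. The populations did not overlap in any of the 3 comparisons with uneducated cells. Among all genes tested 1.25%, 1.27% and 2.32% were higher without overlap in NKG2A+, WT Ly49C/I+ and NKG2A KO Ly49C/I+ cells, respectively, each against uneducated cells of the same genotype.

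The rise of Stat4 was 1.77-fold in NKG2A+ cells (log2 0.82, SE 0.111, adjusted p = 3.11e-05), 1.55-fold in WT Ly49C/I+ cells (log2 0.63, SE 0.126, adjusted p = 0.00584) and 1.48-fold in NKG2A KO Ly49C/I+ cells (log2 0.56, SE 0.106, adjusted p = 0.00243). It passed in all alternatives tried, 30, 27 and 24 in the 3 comparisons. Between NKG2A+ and Ly49C/I+ cells the log2 difference was 0.18 (SE 0.0811, adjusted p = 0.239). Over both genotypes, the 17 uneducated libraries lay at 63.9 to 120 CPM and the 20 receptor-positive libraries at 123 to 184 CPM. Of 9287 genes, 2 (0.0215%) were higher in every receptor-positive than in every uneducated library, and Stat4 was among them. The other, named after its values were seen, was Klre1, a lectin-like receptor gene of NK cells, at 372 to 687 and 692 to 892 CPM. When libraries were scaled by their size alone the same 2 genes were found, with Stat4 at 62.1 to 123 and 124 to 183 CPM, so the gap is narrow on both scales.

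Stat4 shares 1033 exon bases with Gm28177, a gene on the same strand, and 21.7% of the 50-base stretches of its transcripts also occur there. The sources used here do not say how reads from these stretches were assigned. Gm28177 itself was at 0.807 CPM or less in all libraries.

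Stat3, which answers to IL-6, IL-10 and IL-21, was the STAT gene that separated the educated WT populations from each other (ENSMUSG00000004040, chromosome 11, 100885098 to 100939540, minus strand). It was at 573, 747 and 908 CPM in WT uneducated, 517, 634 and 721 CPM in NKG2A+ and 772, 845 and 1189 CPM in Ly49C/I+ libraries. All 9 NKG2A+ libraries lay below all 6 Ly49C/I+ libraries, as for 0.537% of the genes tested in that comparison. NKG2A+ cells had 0.714 times the level of Ly49C/I+ cells (log2 -0.49, SE 0.0913, adjusted p = 0.00781). Without the Ly49C/I+ library at 1189 CPM the value was -0.38 (adjusted p = 0.0121), and with GC content and length corrected it was -0.43 (adjusted p = 0.0621), which ended the call. Uneducated libraries lay between and overlapped both. Against them the log2 difference was -0.18 in NKG2A+ cells (SE 0.0866, adjusted p = 0.171) and 0.29 in Ly49C/I+ cells (SE 0.112, adjusted p = 0.107), the latter passing in 3 of 27 alternatives, among them the fit without WT uneducated 5 (0.35, adjusted p = 0.0329) and that of all groups together (0.30, adjusted p = 0.0398). Stat3 in NKG2A KO mice held 487, 626 and 758 CPM in uneducated and 625, 892, 628, 714 and 795 CPM in Ly49C/I+ libraries, a log2 difference of 0.21 (SE 0.107, adjusted p = 0.187).

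Set against Stat4 per kb, Stat3 was at a ratio of 2.49 to 4.31 in WT uneducated, 1.42 to 2.09 in NKG2A+ and 2.19 to 3.30 in WT Ly49C/I+ libraries. The NKG2A+ range lay below both others. The ratio in NKG2A KO mice was 1.88 to 3.28 in uneducated and 1.76 to 2.31 in Ly49C/I+ libraries, with overlap. These ratios are given as a description and were not tested.

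Stat5a and Stat5b, close relatives that carry the IL-2 and IL-15 signal NK cells need to live, passed in no comparison. The 2 genes lie next to each other on chromosome 11, Stat5b on the minus strand from 100780731 to 100850724 (ENSMUSG00000020919) and Stat5a on the plus strand from 100859351 to 100885169 (ENSMUSG00000004043), and Stat5a overlaps the end of Stat3 by 72 bases. Stat5a was at 22.9, 56.8 and 77.1 CPM in WT uneducated, 32.6, 54.9 and 67.4 CPM in NKG2A+ and 59.2, 66.8 and 76.5 CPM in WT Ly49C/I+ libraries. Stat5b was at 85.3, 99.5 and 112 CPM, 83.7, 98.6 and 118 CPM, and 90.9, 102 and 123 CPM in the same order. The ranges overlapped throughout. Uneducated libraries of NKG2A KO mice held 49.7 to 86.7 CPM of Stat5a and 59.2 to 119 CPM of Stat5b. The Ly49C/I+ libraries there held 72.4, 91.5, 57.6, 40.6 and 65.7 CPM of Stat5a and 90.6, 136, 105, 106 and 83.6 CPM of Stat5b.

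Against uneducated cells Stat5a differed by 0.022 (SE 0.179, adjusted p = 0.956) in NKG2A+, 0.32 (SE 0.193, adjusted p = 0.332) in WT Ly49C/I+ and 0.036 (SE 0.172, adjusted p = 0.915) in NKG2A KO Ly49C/I+ cells on the log2 scale in edgeR. For Stat5b the values were 0.039 (SE 0.0866), 0.091 (SE 0.0972) and 0.19 (SE 0.152). Per kb, the median ratio of Stat5a to Stat5b lay between 0.406 in NKG2A+ and 0.536 in NKG2A KO uneducated libraries. The pair shares sequence, 8.52% of the 50-base stretches of Stat5a and 11.0% of those of Stat5b occurring in another gene, so reads there may be counted for neither.

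**Figure D3:**
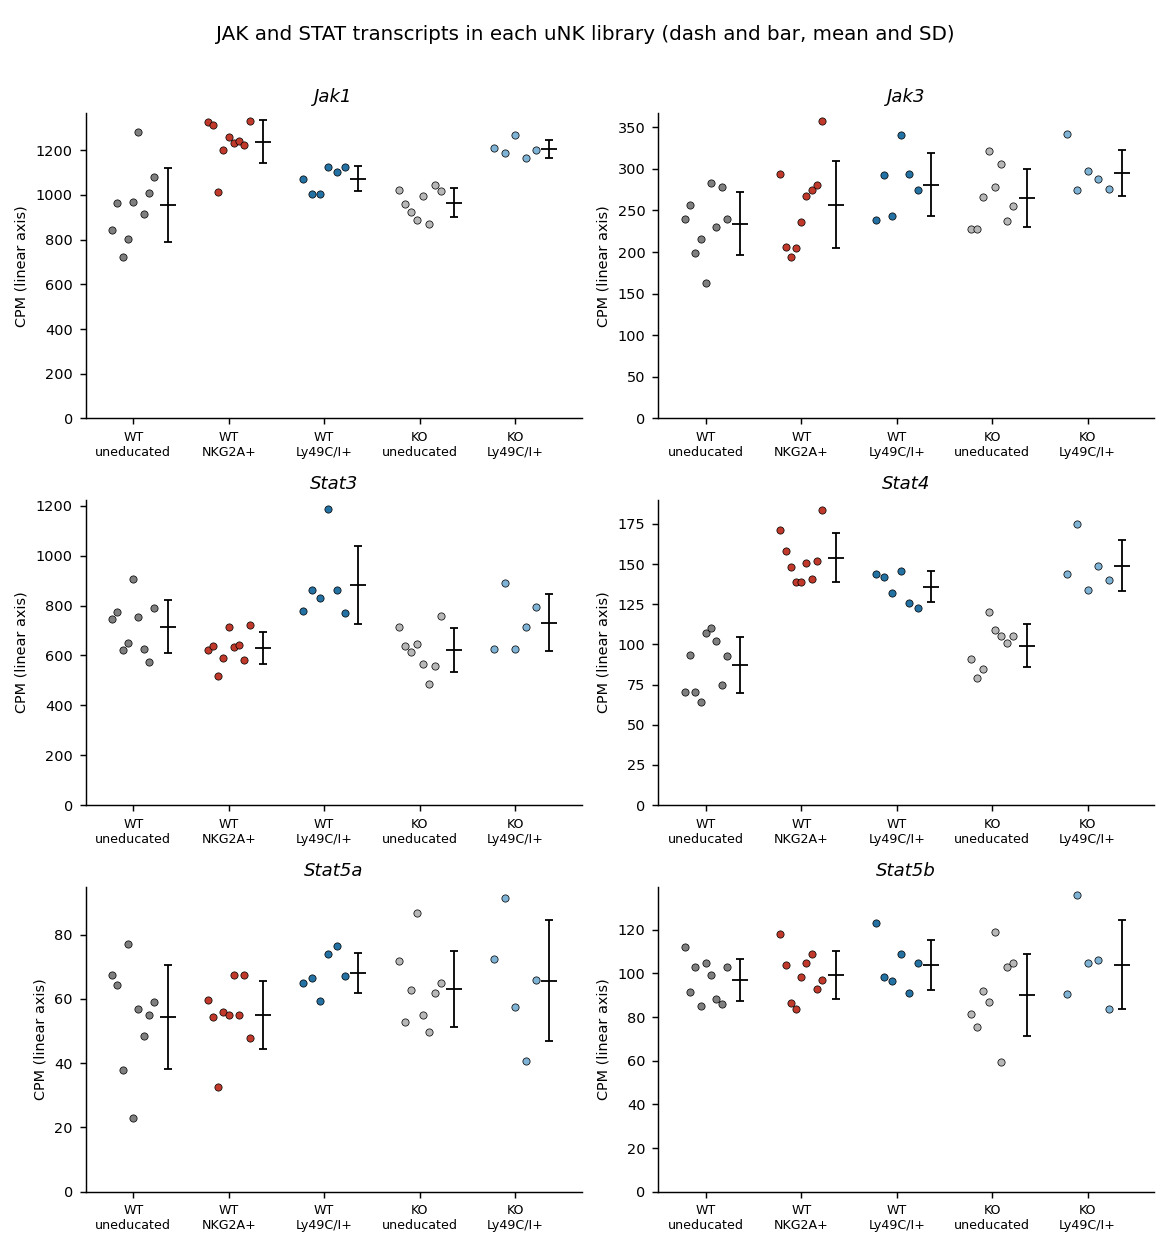
CPM (vertical axis, from 0) of Jak1, Jak3, Stat3, Stat4, Stat5a and Stat5b in each of 37 libraries by group, where KO stands for NKG2A KO, each point is a library, and the dash and bar give the mean and SD. For Stat4 all 17 uneducated libraries (63.9 to 120 CPM) lie below all 20 receptor-positive ones (123 to 184 CPM).

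Between genotypes 0 of the 10 genes passed, as did 0% of all genes tested in each of the 3 comparisons with edgeR's quasi-likelihood test. The NKG2A- gates may hold different cells in WT and NKG2A KO mice. Genotype and the makeup of the gates therefore cannot be told apart here. For uneducated cells 0 of 10 members had an unadjusted p under 0.05, against 6.66% (619) of 9288 genes, and both edgeR's likelihood ratio test and DESeq2 called 1 gene, with 0 members. For Ly49C/I+ cells 4 of the 10 had an unadjusted p under 0.05, against 10.7% (1001) of 9344 genes, and the likelihood ratio test called 62 genes and DESeq2 118, with 0 members in either. DESeq2 gave no adjusted p for Socs2 there, so its count does not cover Socs2. The 4 with an unadjusted p under 0.05 were Socs2 and Jak1, higher in NKG2A KO cells, and Socs3 and Stat3, at log2 differences of -0.445 (SE 0.148, edgeR adjusted p = 0.335) and -0.27 (SE 0.122, adjusted p = 0.452). When the Ly49C/I+ effect itself was compared between NKG2A KO and WT mice it was 2 of 10, Socs2 and Socs3, against 4.44% (414) of 9322 genes, where the likelihood ratio test called 0 genes and DESeq2 called 1. In uneducated cells the 10 log2 differences ran from -0.195 for Stat3 to 0.296 for Socs1.

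**Figure D4:**
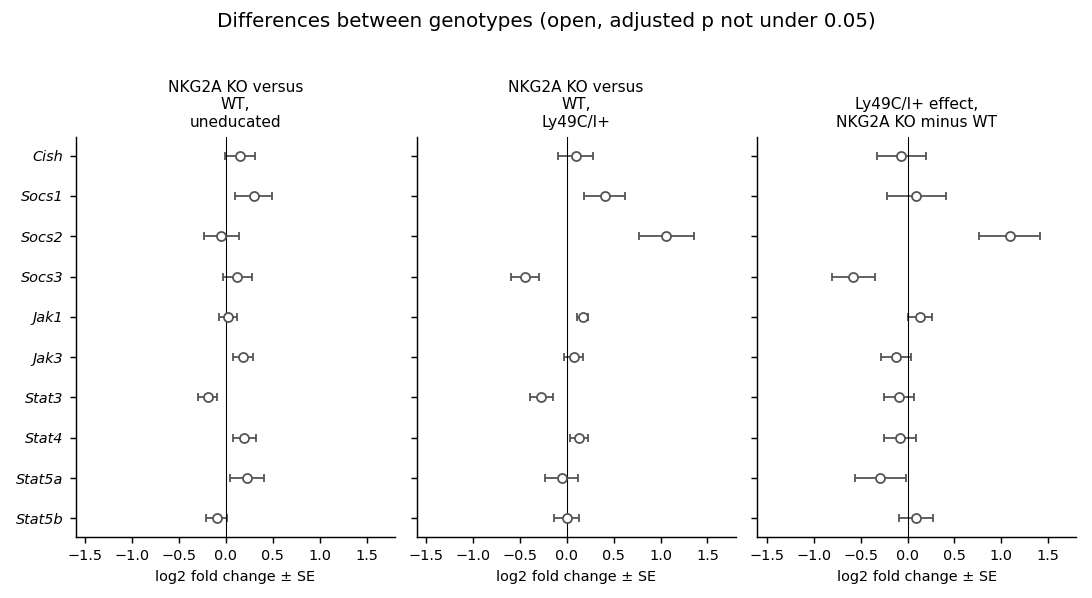
Log2 fold change with its standard error (horizontal axis) of the 10 genes between NKG2A KO and WT mice, in uneducated cells, in Ly49C/I+ cells, and for the difference of the Ly49C/I+ effect. All points are open because 0 of 10 passed the threshold, and Socs2 stands farthest from 0 in the panels of Ly49C/I+ cells (1.06) and of the difference of the effect (1.09).

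The rest of the pathway was read from lists. Stat2, a STAT of the type I interferon response, rose in Ly49C/I+ cells of WT mice (log2 0.63, SE 0.131, edgeR adjusted p = 0.00732) and NKG2A KO mice (0.57, SE 0.189, adjusted p = 0.0482). Stat6, the IL-4 STAT, rose in NKG2A KO Ly49C/I+ cells (0.28, SE 0.0877, adjusted p = 0.0370).

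Of 11 other regulators, 3 were higher in NKG2A+ cells, with 0 lower, where 7.47% of all genes tested were higher and 7.56% lower. These were Sh2b3, an adaptor that restrains JAKs (0.60, SE 0.168, edgeR adjusted p = 0.0191), Ptprc, the phosphatase CD45 (0.46, SE 0.0625, adjusted p = 3.34e-05), and Pias1, an inhibitor of STAT signalling (0.426, SE 0.103, adjusted p = 0.00709). In WT Ly49C/I+ cells 0 were higher and 1 lower (all genes 4.25% and 5.05%), the phosphatase gene Ptpn11 (-0.72, SE 0.213, adjusted p = 0.0409). In NKG2A KO Ly49C/I+ cells 3 were higher and 0 lower (all genes 7.34% and 8.99%), namely Pias3 (0.87, SE 0.196), Usp18 (0.60, SE 0.156) and Ptprc (0.41, SE 0.0671), with adjusted p of 0.00676, 0.0163 and 0.000970.

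Of 23 receptor chains that use JAKs, 15 were tested in NKG2A+ cells, with 7 higher and 1 lower than in uneducated cells. The 7 include Il7r, which may have met the filter only through the NKG2A+ libraries, where it was high. In Ly49C/I+ cells 14 were tested, with 5 higher and 1 lower in WT and 6 higher and 1 lower in NKG2A KO mice. Over all genes tested the shares were 7.47% higher and 7.56% lower in NKG2A+, 4.25% and 5.05% in WT Ly49C/I+ and 7.34% and 8.99% in NKG2A KO Ly49C/I+ cells. The median log2 fold change of the chains tested was 0.29, 0.47 and 0.37 in the same order. The chain that fell was the same in all 3 comparisons, Il2ra, the high-affinity IL-2 receptor chain. Its log2 fold change was -0.785 (SE 0.231, edgeR adjusted p = 0.0242) in NKG2A+, -1.51 (SE 0.311, adjusted p = 0.00684) in WT Ly49C/I+ and -1.69 (SE 0.360, adjusted p = 0.00505) in NKG2A KO Ly49C/I+ cells.

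Il12rb2, the IL-12 receptor chain that STAT4 docks on, rose with Stat4 in NKG2A+ cells, from 45.2 ± 12.3 to 81.6 ± 11.7 CPM (mean ± SD, n = 9 and 9, log2 0.86, SE 0.150, edgeR adjusted p = 0.00045). It also rose in NKG2A KO Ly49C/I+ cells, from 51.8 ± 8.71 to 77.5 ± 21.6 CPM (0.56, SE 0.169, adjusted p = 0.0309). Il7r, the IL-7 receptor chain, went from 3.37 ± 2.74 to 19.3 ± 9.25 CPM in NKG2A+ cells (2.51, SE 0.498, adjusted p = 0.00151). Its mean in uneducated cells lay under the 5 CPM of the filter, so this fold change starts from a low level. Il21r and Il4ra were higher in WT Ly49C/I+ cells than in uneducated cells (0.73, SE 0.192, and 0.76, SE 0.204, adjusted p = 0.0244 and 0.0260). Il21r rose likewise in NKG2A KO Ly49C/I+ cells (0.65, SE 0.132, adjusted p = 0.00395). Between NKG2A+ and Ly49C/I+ cells of WT mice 1 receptor chain was higher and 2 were lower, namely Ifngr1 (0.31, SE 0.0742), Il21r (-0.59, SE 0.133) and Il4ra (-0.52, SE 0.106), with adjusted p of 0.0283, 0.0230 and 0.0140.

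Of 10 genes described as STAT5 targets in lymphocytes, besides Cish and the SOCS genes, 9 were tested. In NKG2A+ cells 2 were higher and 1 lower, in WT Ly49C/I+ cells 1 and 1, and in NKG2A KO Ly49C/I+ cells 2 and 1, beside shares over all genes of 7.47% and 7.56%, 4.25% and 5.05%, and 7.34% and 8.99%. The one that fell was Il2ra in each. Those that rose were the kinase gene Pim2 in NKG2A+ cells (0.89, SE 0.157, edgeR adjusted p = 0.000453) and WT Ly49C/I+ cells (0.56, SE 0.166, adjusted p = 0.0405), and Ccnd2, a cyclin of early cell cycle, in NKG2A+ cells (0.61, SE 0.137, adjusted p = 0.00411) and NKG2A KO Ly49C/I+ cells (0.605, SE 0.158, adjusted p = 0.0164). Bcl2, a survival gene, rose in NKG2A KO Ly49C/I+ cells (0.56, SE 0.171, adjusted p = 0.0343).

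Across the 37 libraries some of the 10 genes varied together. The following values are Pearson r of log2(CPM + 1), given as a description, since libraries share groups and depth. Jak1 and Stat4 had the highest value, 0.79, which was 0.46 once group means were removed. Cish and Socs1 followed at 0.69 (0.57 within groups), and Socs3 and Stat4 at 0.67 (0.59 within groups). All 9 values of Socs2 were below 0, down to -0.45 with Stat5a. Within groups its lowest value was -0.49 with Jak1, and it was at 0.16 with Cish. Stat5a and Stat5b, though neighbours and close in sequence, had a value of 0.094.

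**Figure D5:**
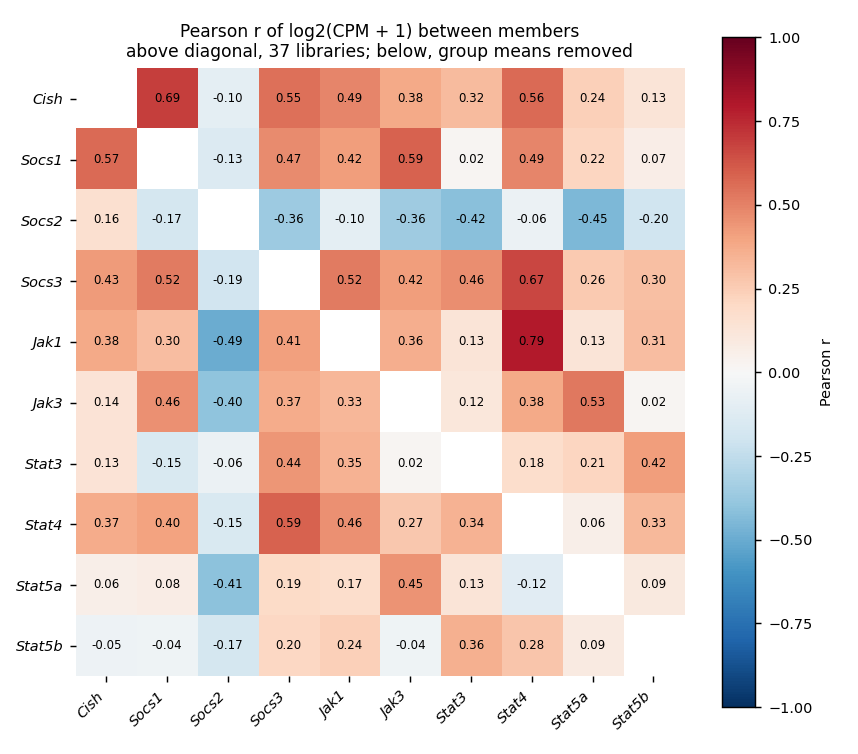
Pearson r of log2(CPM + 1) for each pair of the 10 genes, over 37 libraries above the diagonal and with group means removed below it, on a colour scale from -1 to 1. Jak1 with Stat4 (0.79 above the diagonal) is the darkest red square, and Socs2 is blue in all 9 squares above the diagonal.

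Among 9287 genes the ones most like Stat4 over the 37 libraries were Gimap4 (r = 0.90), Gimap3 (0.88) and Gimap9 (0.88), which were at 0.65, 0.64 and 0.65 within groups. For Jak1 they were Ifngr1, the interferon gamma receptor chain (0.84, within groups 0.58), Nsd3 (0.83) and Ptprc (0.82). Socs1 was most like Sema4a (0.865, within groups 0.84), Ier5 (0.82) and the MHC class I gene H2-K1 (0.82). Cish was most like Ctsw (0.80), the interferon-response factor gene Irf1 (0.79) and Mndal (0.78), and Socs3 like Slc9a3r1, Dhrs3 and Cebpb (0.79, 0.79 and 0.78). Stat3 was nearest to Slc3a2, Gtf3c2 and Vgll4 (all 0.77) and Jak3 to Dennd1c (0.81), Mib2 (0.79) and Abhd16a (0.77). The likeness was lower for Stat5a, nearest to Fem1a (0.69), Gpatch8 (0.68) and Mus81 (0.68), Stat5b, nearest to Med12 (0.66), Ahnak (0.63) and Kidins220 (0.62), and Socs2, nearest to Rbm27 (0.65), Gm4617 (0.62) and Rab10 (0.60). The remaining values within groups, in the order named, were 0.72 and 0.48 for Jak1 and 0.75 and 0.775 for Socs1. They were 0.63, 0.71 and 0.61 for Cish, 0.70, 0.70 and 0.68 for Socs3, and 0.66, 0.65 and 0.69 for Stat3. For Jak3 they were 0.755, 0.72 and 0.71, and for Stat5a 0.67, 0.72 and 0.63. For Stat5b they were 0.60, 0.57 and 0.56, and for Socs2 0.51, 0.545 and 0.40.

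Without the 4 libraries with the fewest genes, 3 members passed in NKG2A+ and 3 in WT Ly49C/I+ cells against uneducated cells, 1 between NKG2A+ and Ly49C/I+ cells, and 3 in NKG2A KO mice. Of all genes tested with these libraries, 1666 of 9359, 986 of 9304, 227 of 9326 and 1275 of 9383 passed in the same order. The calls lost were both of Socs2. Stat4 was then 0.82, 0.66 and 0.50 higher on the log2 scale in the 3 comparisons with uneducated cells (edgeR adjusted p = 3.6e-05, 0.00547 and 0.00771).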

How the data were processed

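RNA of sorted uNK cells was amplified with a SMART-Seq v4 kit, which does not mark strand, and sequenced as Nextera XT libraries. Per the labels and the study's methods, the authors trimmed reads with Trim Galore 0.5.0, aligned them with STAR 2.7.1 to GRCm38 and tested with edgeR 3.26.5 after CQN. The deposited values are counts of reads per gene, not normalized, 1 file per library. The sources used here do not name the program that counted. Of the reads, 2.69 to 6.83% fell on no gene, 4.04 to 4.6% were ambiguous and 11.3 to 13.8% did not align uniquely. All of these were left out. The share on no gene was 2.9 to 4.47% in WT uneducated, 3.01 to 4.49% in NKG2A+ and 4.16 to 6.83% in WT Ly49C/I+ libraries. In NKG2A KO mice it was 2.69 to 5.67% in uneducated and 3.94 to 5.26% in Ly49C/I+ libraries. A total of 13287163 to 18875033 counts per library sets the precision.

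Genes with at least 5 CPM in a share of 0.5 of the libraries compared were fitted in edgeR 4.0.16 (R 4.3.3, TMM, quasi-likelihood test, adjusted p threshold 0.05), using only the groups compared, or the 4 groups of both genotypes for the difference in effect. Some of the fits were also run on simulated counts, and the outcome is not given here. These counts were drawn independently for each library, so they hold no pairing. Alternatives were the likelihood ratio test, DESeq2 1.42.0, other scalings and filters, splines for GC content and length in place of CQN, all groups together, a replicate block, and fewer libraries. Fits with the replicate block used only libraries whose number occurred in both groups compared. Symbols, positions and lengths came from GENCODE M21. Of 53700 identifiers 52093 had a symbol. The 10 genes, the lists and the tests were chosen with earlier results of these data known. Named genes are all members, the up to 3 largest changes that passed from each list in each comparison, the 3 genes most like each member, and Klrc1 and Klra9. The counts of the list of other SOCS, JAK and STAT genes are not reported here.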

Additional observations from a re-analysis of the deposited data

Results flagged for a closer look

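In 50 tests (10 genes in 5 groups) 5 libraries stood apart from the rest of their group by Dixon's criterion at 95%, and chance gives about 1 in 20. Cish was at 125 CPM in NKG2A KO uneducated 4, against 91.9 CPM in the next library, and at 198 CPM in NKG2A KO Ly49C/I+ 4, against 124 CPM in the next. Socs1 was at 28.2 CPM in WT NKG2A+ 4, below the next library at 47.8 CPM. Jak1 was at 1013 CPM in WT NKG2A+ 3, below the next at 1203 CPM. Stat3 was at 1189 CPM in WT Ly49C/I+ 5, above the next at 863 CPM, and this library also had a count on few genes (14038).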

How the results depend on the processing

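The calls of Stat4 in its 3 comparisons with uneducated cells, of Jak1 in NKG2A+ and in NKG2A KO Ly49C/I+ cells, and of Socs3 in WT Ly49C/I+ cells passed under all alternatives run. The calls of Cish, Socs2, Stat3 (NKG2A+ against Ly49C/I+ cells) and Socs3 (NKG2A+ cells) did not. The cause was not tested. Socs2 had the lowest counts of the 10 genes (from 127 reads). The set without the 4 libraries with the fewest genes was chosen after seeing the data. In WT Ly49C/I+ against uneducated cells it is the same fit as that without the libraries numbered 5. In NKG2A KO mice it is the same as leaving out NKG2A KO Ly49C/I+ 5. Between genotypes in uneducated cells both sets are the same as leaving out WT uneducated 5. Such fits are counted more than once among the alternatives. DESeq2 gave no adjusted p for Socs2 between genotypes in Ly49C/I+ cells.

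In WT Ly49C/I+ against uneducated cells 864 genes and 4 members passed. Without a filter it was 451 genes and 2 members, with all groups in 1 fit 1538 genes, and with GC content and length corrected 2 members. Leaving out 1 library gave 461 (without WT Ly49C/I+ 7) to 1234 genes (without WT uneducated 5) and 2 to 5 members. Between NKG2A+ and Ly49C/I+ cells 254 genes (122 higher, 132 lower) and 2 members passed. The likelihood ratio test gave 442 genes, DESeq2 558, no filter 104 (1 member), GC content and length 125 (45 higher, 80 lower, 0 members), the replicate block with GC content and length 125 (39 higher, 86 lower, 1 member), leaving out the WT libraries numbered 5 124 (1 member), and leaving out those with the fewest genes 1 member. Leaving out 1 library gave 147 (without WT Ly49C/I+ 7) to 306 genes and 1 to 2 members. In NKG2A KO mice 1519 genes passed, 889 without a filter, 748 with the replicate block, 556 with the block and GC content and length, and 967 (without NKG2A KO Ly49C/I+ 4) to 1763 when 1 library was left out, with 2 to 4 members. In NKG2A+ against uneducated cells leaving out 1 library gave 1118 to 1687 genes and 2 to 3 members. Between genotypes 0 genes passed. In uneducated cells the likelihood ratio test and DESeq2 gave 1 each. In Ly49C/I+ cells they gave 62 and 118, all groups in 1 fit 21, and leaving out 1 library 0 to 15 (15 without WT Ly49C/I+ 1). For the difference in effect DESeq2 gave 1.

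Same-numbered libraries were checked for shared deviations from their group means. Every library correlated best with its own number for WT uneducated with Ly49C/I+ (6 of 6, r 0.0741 to 0.189) and NKG2A+ with Ly49C/I+ (6 of 6, r 0.0342 to 0.111), but not for WT uneducated with NKG2A+ (5 of 9) or within NKG2A KO mice (3 of 5), which is a hint from the data and no proof of pairing. The numbers themselves are in doubt. For WT Ly49C/I+ libraries titles and descriptions give different numbers (those of the descriptions were used), the description of WT uneducated 5 repeats that of library 4, and a supplementary table of the study leaves out number 5. What the block and the set without number 5 mean rests on these labels. Fits with the replicate block dropped libraries whose number was in only 1 group. Against WT Ly49C/I+ cells they left out libraries 3, 6 and 9 of WT uneducated or NKG2A+ cells. In NKG2A KO mice they left out uneducated libraries 1, 2 and 3. In these comparisons the block and the smaller set of libraries cannot be told apart. With the replicate block 1418, 983, 279 and 748 genes passed in the 4 comparisons of populations. In these fits the calls of Socs2 were lost in WT Ly49C/I+ against uneducated cells (-1.06, edgeR adjusted p = 0.058) and in NKG2A+ against Ly49C/I+ cells (1.11, adjusted p = 0.0836). Without a block, leaving out WT uneducated 3 alone also ended the first call (adjusted p = 0.0661), and leaving out NKG2A+ 3 alone the second (adjusted p = 0.0572). With the block Stat3 passed in the first of these comparisons (0.31, adjusted p = 0.0303) and Jak1 in the second (0.238, adjusted p = 0.0405), and Socs1 in NKG2A KO mice was 0.277 (adjusted p = 0.213). No other member's call changed. Between genotypes the block joined same-numbered WT and NKG2A KO libraries, which are from different mice. There the own number correlated best for 1 of 8 pairs in uneducated and 1 of 4 pairs in Ly49C/I+ cells. These block fits follow no known pairing, and nothing is drawn from them. For the difference in effect, numbers were joined within each genotype.

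Of 70 member values 18 changed sign under some alternative, and 0 of these 18 had passed. In log2 units, Stat5a in NKG2A+ against uneducated cells was -0.026 with GC content and length, -0.079 without the libraries numbered 5, -0.062 without those with the fewest genes, and -0.079 to 0.098 with 1 library left out. Stat5b there was -0.0033 with GC content and length. Between NKG2A+ and Ly49C/I+ cells Jak3 was 0.0065 with GC content and length and Stat4 -0.017 with the block added. In NKG2A KO mice Socs3 was -0.044 with the block, and Stat5a -0.088 with GC content and length, -0.068 with the block added, -0.113 without the libraries with the fewest genes and -0.113 to 0.16 with 1 library left out. Between genotypes in uneducated cells Socs2 was 0.062 without the libraries numbered 5 and without those with the fewest genes (-0.134 to 0.062 with 1 left out), Socs3 -0.021 (-0.004 to 0.179) and Jak1 -0.0028 (-0.02 to 0.086) with GC content and length. Block values between genotypes join libraries of different mice, as stated above. In Ly49C/I+ cells Cish was -0.024 with the block and -0.085 with GC content and length added (-0.108 to 0.185), Jak3 -0.0072 with GC content and length and -0.04 with the block added, and Stat5a -0.208 to 0.067 with 1 left out. Stat5b there was -0.0058 with DESeq2, -0.0057 with RLE factors, -0.015 with no scaling, -0.04 with GC content and length, -0.039 with the block added, -0.1 without the libraries with the fewest genes and -0.119 to 0.064 with 1 left out. For the difference in effect Socs1 was -0.224 with the block (-0.0086 to 0.272 with 1 left out), Jak3 0.0071 without the libraries numbered 5 and 0.033 without those with the fewest genes, Stat5b -0.015 without the latter (-0.033 to 0.168), Cish -0.262 to 0.05 and Stat3 -0.175 to 0.016.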
